A study of Mus musculus with 2 samples.

Results

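Among hematopoietic stem cells (HSCs) of young and aged mice, the cells with the most accessible chromatin at 10 lymphoid genes were examined. For each cell, the unique fragments inside the bodies of Flt3, Il7r, Dntt, Rag1, Rag2, Ebf1, Satb1, Notch1, Ikzf1 and Cd79a, with 10 kb on either side, were counted and divided by all unique fragments of that cell. The top 15% of each library by this score were taken, which were 733 of 4887 young cells and 510 of 3405 aged cells, or 1243 of 8292 in all. They are called high-score cells here, since their accessibility at these genes was what chose them, and the remaining cells of the same library are called the other cells.

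HSCs sit at the top of blood formation and give rise to every blood lineage. Lymphoid priming is the early opening and low expression of lymphoid genes in progenitors that have not yet committed, and lymphoid output of the bone marrow is known to decline with age. Of the genes in the score, Flt3 encodes a cytokine receptor of lymphoid-primed progenitors, Il7r a receptor chain for interleukin-7, and Dntt a polymerase that adds bases at joints of antigen receptor genes. Rag1 and Rag2 encode the recombinase that cuts those genes, Ebf1, Ikzf1 and Satb1 encode nuclear regulators of lymphoid development, Notch1 encodes the receptor that directs the T cell fate, and Cd79a encodes a signalling chain of the B cell receptor.

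Single cell ATAC sequencing had been run on 2 libraries of C57BL/6 mice, for which the labels give no modified gene and no treatment: young HSCs from mice 10 weeks old and aged HSCs from mice 20 months old. Both were sorted from bone marrow as Sca-1+ and c-kit+ cells that were Lin- and IL-7-, and further as CD150+, CD34-, CD48- and Flt3-, so cells bearing Flt3 protein on the surface had been removed before sequencing. An antibody against the interleukin-7 receptor was part of the lineage mixture. The number of mice behind each library is not given in the sources used here. With 1 library per age there was no replicate and no test, and every interval below comes from an exact 95% binomial interval and covers counting error only. The young library held 53786133 unique fragments and 5028 barcodes called as cells, the aged one 48333115 and 3694. The study states more cells after quality control than the limits used here left in either library, and the difference was not traced. The libraries shared 26 cell barcodes within the limits on depth, 1 of them among the high-score cells of both.

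Accessible sites of some genes of the score are shown first, on the plus strand of GRCm38, which is the mm10 build. Each is the stretch of 200 bases nearest to the centre of a peak that holds no annotated untranslated region. For Dntt these are the central bases of the peak, and for Flt3 and Il7r the stretch was shifted from them. The peaks held 19.7% of the young fragments in the window of Flt3, 31.5% in that of Il7r and 36.5% in that of Dntt. For Flt3 (chr5:147400066-147400265), Il7r (chr15:9529836-9530035) and Dntt (chr19:41031194-41031393), the peak with the most fragments lay at or near the start of the gene, and the stretch printed is intronic at its centre. Capitals mark matches, on either strand, to 1 of 20 fixed consensus sequences. The Dntt stretch held the AP-1 consensus TGANTCA, found in 9.33% of all peaks over their central 200 bases, and the GATA consensus AGATAA, found in 8.97%. The Il7r stretch held the RUNX consensus TGTGGTT, found in 9.32%, read from the minus strand, and the Flt3 stretch, with a GC content of 69%, held none of the 20.
Flt3: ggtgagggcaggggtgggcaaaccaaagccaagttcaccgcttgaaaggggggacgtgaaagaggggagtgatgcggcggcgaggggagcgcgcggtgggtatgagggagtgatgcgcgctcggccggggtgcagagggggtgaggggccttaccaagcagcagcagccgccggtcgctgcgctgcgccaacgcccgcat
Il7r: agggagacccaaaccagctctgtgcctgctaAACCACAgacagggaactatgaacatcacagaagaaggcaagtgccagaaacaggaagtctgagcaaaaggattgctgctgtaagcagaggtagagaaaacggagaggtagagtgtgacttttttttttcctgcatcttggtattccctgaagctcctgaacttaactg
Dntt: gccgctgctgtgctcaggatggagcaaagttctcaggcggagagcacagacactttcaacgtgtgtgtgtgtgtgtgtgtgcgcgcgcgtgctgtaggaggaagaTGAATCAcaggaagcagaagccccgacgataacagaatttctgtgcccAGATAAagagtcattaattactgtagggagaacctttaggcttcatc

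Distal peaks that hold the PU.1 consensus GAGGAAGT are described below as a group, since their accessibility was higher in high-score cells of both libraries. PU.1 is an ETS family factor of myeloid and lymphoid progenitors. The 3 such peaks with the most fragments lay in introns of Fam107b (chr2:3657947-3658146), Ankrd33b (chr15:31350029-31350228) and Ski (chr4:155200991-155201190), a corepressor gene. Capitals again mark matches, among them GAGGAAGT, or ACTTCCTC where it lies on the minus strand, together with 1 CTCF consensus in Fam107b (AGATGGC, read from the minus strand) and 1 E2A consensus in Ski (CACCTG, read from the minus strand).
Fam107b: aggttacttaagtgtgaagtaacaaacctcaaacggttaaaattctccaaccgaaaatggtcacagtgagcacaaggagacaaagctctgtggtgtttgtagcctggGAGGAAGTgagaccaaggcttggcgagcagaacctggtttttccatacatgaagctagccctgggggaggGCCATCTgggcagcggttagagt
Ankrd33b: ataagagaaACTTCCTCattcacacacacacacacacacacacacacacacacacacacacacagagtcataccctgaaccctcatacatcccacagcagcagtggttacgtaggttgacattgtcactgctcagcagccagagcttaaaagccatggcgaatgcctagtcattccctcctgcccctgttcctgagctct
Ski: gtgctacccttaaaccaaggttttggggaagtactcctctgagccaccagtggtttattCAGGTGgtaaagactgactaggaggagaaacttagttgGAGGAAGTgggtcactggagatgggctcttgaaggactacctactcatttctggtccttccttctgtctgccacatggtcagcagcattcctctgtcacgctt

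High-score cells were chosen on few fragments. The median cell of either library had 7 fragments in the windows of the 10 genes, and the median high-score cell had 11. The score had a median of 7.27 fragments per 10000 unique fragments among young and 6.77 among aged HSCs, and the lowest score taken was 10.5 and 9.74. In the young library, the 2 cells just inside had 5 fragments of 4756 and 8 of 7608, and the 2 just outside had 14 of 13324 and 7 of 6666. In the aged library, the 2 just inside had 6 fragments of 6163 and 4 of 4106, and the 2 just outside had 10 of 10272 and 10 of 10277. Of the high-score cells, 42.6% among young and 42.0% among aged HSCs lay within 1 fragment of the threshold. The variance of the fragment number over cells was 1.11 and 1.09 times that of counting alone, and the score formed a single peak with no separate group of cells at its upper end.

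**Figure D1:**
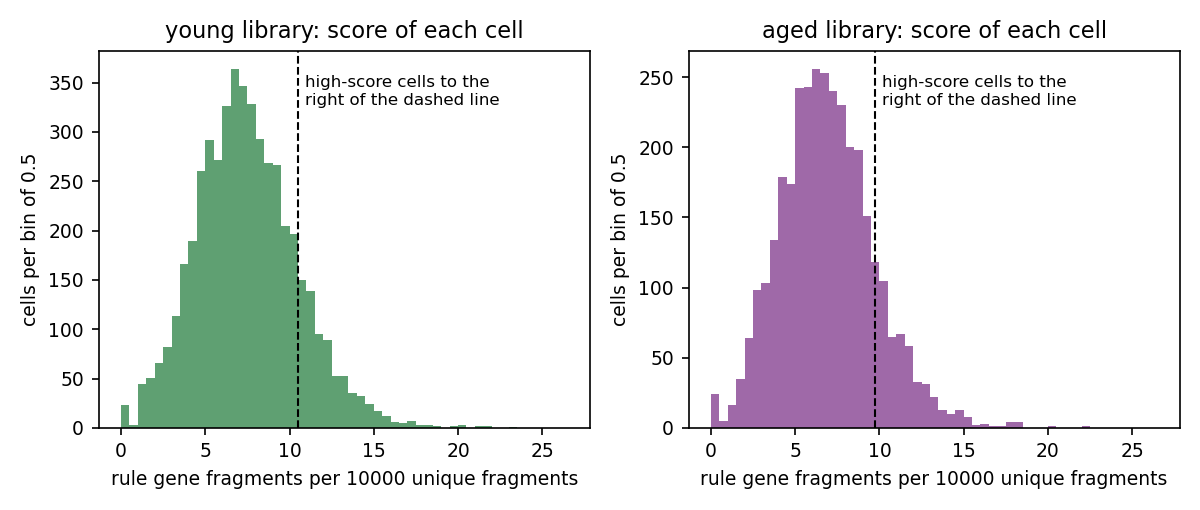
Histograms of the score of each cell, in fragments of the 10 rule genes per 10000 unique fragments (x axis), with the number of cells per bin of 0.5 (y axis), for the young library on the left and the aged library on the right. The dashed line is the lowest score taken, 10.5 among young and 9.74 among aged HSCs, and it crosses the falling right side of 1 peak in both.

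High-score cells were shallower than the other cells. Their median depth was 9211 against 10004.5 unique fragments among young HSCs and 9635 against 11284 among aged HSCs. Fewer of them were marked as doublets, 2.32% against 4.502% and 4.51% against 7.84%. The share of fragments in the authors' peaks was 83.2% against 82.9% and 81.1% against 81.0%, and mitochondrial reads made up 1.85% against 1.88% and 0.929% against 0.940%. The part of depth and doublets in the values below was examined by choosing the cells again within 5 bands of depth, after thinning each cell to 4000 fragments, and without marked doublets.

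The level of the 10 genes in the cells chosen on them is given as a description only. Over all 10 genes, high-score cells had 12.3 fragments per 10000 in the young library against 6.70 in the other cells, and 11.4 against 6.26 in the aged library. Levels are given as fragments in a window per 1000000 unique fragments (FPM). Flt3 stood at 188 FPM in young high-score cells against 92.2 in the other young cells, and at 146 against 72.5 in the aged library. Notch1, Ikzf1, Flt3 and Ebf1 each supplied between 11.8% and 19.4% of the score's fragments, so they weighed most in the choice. Il7r, with 3.99 FPM in young and 4.14 in aged cells, supplied 0.534% and 0.596%, and 3.79% and 4.41% of cells had any fragment in its window. Per kb of window, Cd79a was the most accessible gene, at 3.35 FPM in young and 3.09 in aged cells, and Il7r the least, at 0.0900 and 0.0932.

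To ask whether these genes were open together in the same cells, each gene was left out of the score in turn, the top 15% were chosen again on the others, and the gene that had been left out was then measured. Flt3 and Dntt were the 2 of 10 genes that were higher in the chosen cells of both libraries, and their intervals reached below 1. Of all genes tested outside the list, 27.5% were higher in high-score cells of both libraries, so this count does not set the 10 genes apart. Flt3 had 111 FPM in cells chosen without it against 105 in the other young cells, a ratio of 1.06 (0.984 to 1.15), and 88.9 against 81.2 among aged HSCs, a ratio of 1.09 (0.990 to 1.21). Dntt had 46.5 against 42.3 among young HSCs, a ratio of 1.099 (0.973 to 1.24), and 37.8 against 37.1 among aged HSCs, a ratio of 1.02 (0.870 to 1.19). The ratio of Flt3 stayed above 1 in each of 10 settings in each library, from 1.01 to 1.09 among young and from 1.03 to 1.25 among aged HSCs.

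The ratio of Dntt was above 1 in 9 of 10 settings in young cells, from 0.641 to 1.099, and in 5 of 10 in aged cells, from 0.786 to 1.07. The remaining genes gave no common direction. Satb1 was at 1.04 (0.945 to 1.14) among young and 0.918 (0.811 to 1.04) among aged HSCs. The recombinase genes Rag1 and Rag2, whose windows overlap and which were therefore left out together, were at 1.01 and 1.003 among young and 0.995 and 0.971 among aged HSCs. Ebf1 was at 0.970 and 1.002, Ikzf1 at 0.991 and 1.02, and the intervals of all 4 of these genes held 1 in both libraries. Notch1, at 0.990 (0.925 to 1.06) and 0.947 (0.872 to 1.03), and Cd79a, at 0.937 (0.855 to 1.03) and 0.940 (0.842 to 1.05), were below 1 in both. Of all genes tested outside the list, 24.0% were lower in high-score cells of both libraries.

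Il7r was the gene whose interval lay wholly above 1 in a library. In aged cells chosen without it, 33 fragments gave 6.38 FPM against 3.79, a ratio of 1.68 (1.11 to 2.48). In young cells, 25 fragments gave 3.602 against 4.06, a ratio of 0.888 (0.559 to 1.35). The 2 libraries thus lay on opposite sides of 1, and with 10 genes and 2 libraries examined, this one interval was the exception among 20. The aged interval held 1 after thinning, at 1.39 (0.673 to 2.65), at start sites, at 1.57 (0.625 to 3.48), and without marked doublets, at 1.57 (0.992 to 2.42). Among the other genes, 3 intervals left 1 in an alternative setting. These were young Satb1 after thinning, at 1.23 (1.07 to 1.41), aged Flt3 at start sites, at 1.25 (1.01 to 1.53), and young Cd79a scaled to in-peak fragments, at 0.894 (0.815 to 0.980).

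**Figure D2:**
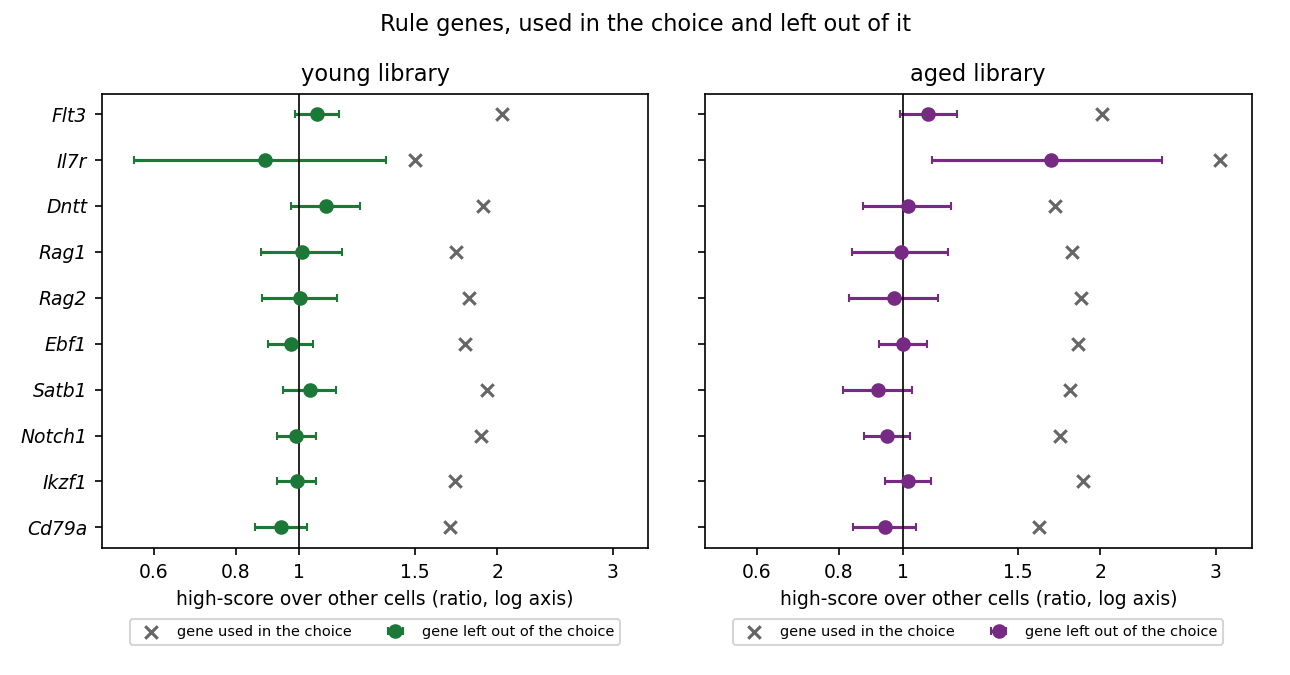
Ratio of FPM in chosen over other cells (x axis, log scale) for the 10 rule genes (y axis), young library left and aged library right. Crosses are genes measured in the cells they helped to choose, and points with 95% counting intervals are the same genes left out of the choice, which sit near 1 except for Il7r in the aged library, at 1.68.

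The 10 genes were also measured together, with the fragments of each cell split at random into 2 parts, 1 to choose the cells and 1 to measure them. In the part used for the choice, the 10 genes together were 2.26 times higher in the chosen young cells and 2.24 times higher in the chosen aged cells. In the part not used they were 1.07 (1.03 to 1.12) and 1.02 (0.971 to 1.07) times higher. In fragments that had no part in the choice, the young interval thus lay above 1 and the aged interval held 1. A single random split was made per library, and the intervals leave out the spread between splits.

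Genes outside the list were then compared between high-score and other cells, over 14179 protein-coding genes with at least 1000 fragments per library in the gene body with 10 kb on either side. The solute carrier gene Slc6a13 was the single gene at least 1.2-fold higher in both libraries, which is 0.00705% of those tested, and no gene was at least 1.2-fold lower in both (0%). In single libraries, 0.176% of genes were higher by that fold among young and 0.381% among aged HSCs, and 0.303% and 0.677% were lower. At 1.1-fold, 67 genes were higher in both libraries (0.473%) and 84 were lower in both (0.592%). The SD of the log2 ratio over genes was 0.083 among young and 0.096 among aged HSCs, beside root mean square counting errors of 0.078 and 0.092. The intervals of 6.22% and 5.95% of genes excluded 1, where counting error alone gives 5%. Across genes, which are not independent replicates, the ratios of the 2 libraries had a Pearson's r of 0.029, and 51.5% of genes lay on the same side of 1.

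By the ratio nearer to 1 of the 2 libraries, the 10 highest genes were Slc6a13, Nme2, 1700064H15Rik, Alpl, Ago4, Slc6a12, Lamtor3, B4galt7, Zfp280b and Pgm2. Slc6a13, a transporter of GABA and taurine, had 47.5 FPM in high-score against 39.4 in other young cells, a ratio of 1.204 (1.07 to 1.36), and 38.2 against 31.1 among aged HSCs, a ratio of 1.23 (1.05 to 1.43). Its neighbour Slc6a12, whose window overlaps that of Slc6a13, was at 1.17 and 1.14. Nme2, a nucleoside diphosphate kinase, was at 1.23 (1.09 to 1.39) and 1.17 (1.01 to 1.36), and Ago4, an Argonaute of small RNA pathways, at 1.15 and 1.199. None of the 10 belongs to the lymphoid lists described below.

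The 10 lowest genes were Luzp2, Cavin2, Mobp, Pcbd2, Bok, Fgf14, Adgrb3, Togaram2, Klhl4 and Lrrc4c. Mobp encodes a myelin protein, Adgrb3 an adhesion receptor and Lrrc4c a synaptic adhesion protein. Cavin2, a caveola coat gene that is known to be higher in aged HSCs, had 32.4 FPM in high-score against 38.4 in other young cells, a ratio of 0.845 (0.732 to 0.971), and 60.9 against 73.0 among aged HSCs, a ratio of 0.835 (0.740 to 0.940). Luzp2 was at 0.842 (0.746 to 0.947) and 0.812 (0.706 to 0.931), and Bok, a BCL2 family gene, at 0.849 (0.724 to 0.990) and 0.772 (0.636 to 0.929). These genes head a ranking of 14179, and their intervals do not allow for that choice.

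**Figure D3:**
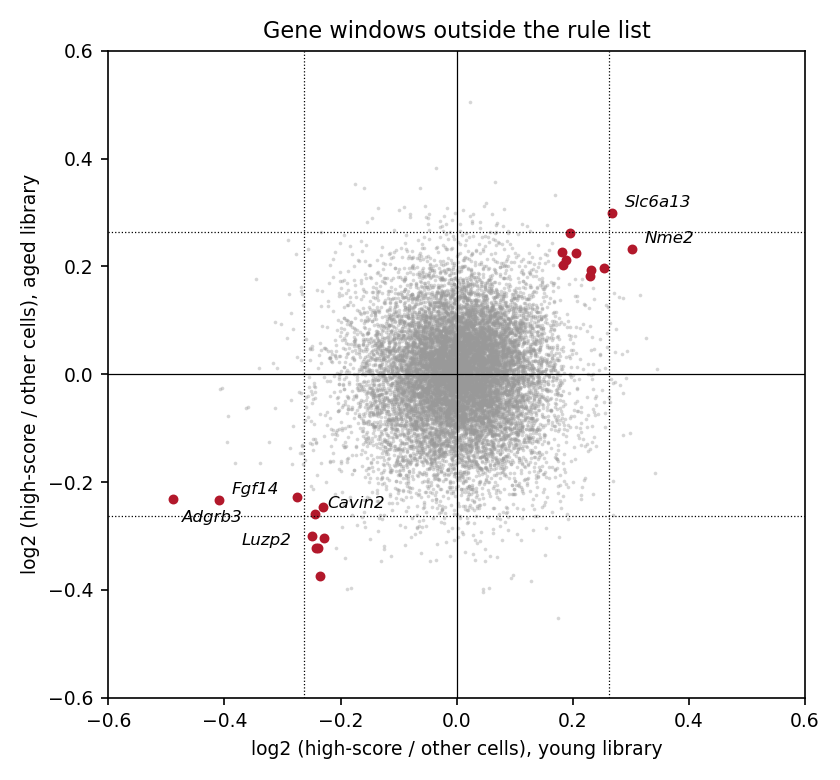
Each point is 1 of 14179 genes outside the rule list, placed by its log2 ratio of FPM in high-score over other cells in the young (x axis) and the aged library (y axis). Dotted lines mark 1.2-fold, red points are the 20 genes named by rank, and the cloud is round, with 1 gene, Slc6a13, past 1.2-fold in both libraries.

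Lists of marker genes were used to check the label of the cells. Over 8 B lymphoid genes outside the rule, among them Pax5, Vpreb1 and Cd22, the median log2 ratio was 0.026 among young and 0.042 among aged HSCs, beside 0.0049 and 0.0017 over all genes tested. This direction turned in some settings, to -0.014 in young cells for the top 25%, to -0.042 in aged cells with windows of 2 kb, and to -0.0091 and -0.0058 when the score used 4 marker genes. Of these genes, 6 were above 0 in both libraries, as were 27.5% of all genes. Pax5, which fixes the B cell fate, was at 1.002 (0.920 to 1.09) and 1.01 (0.915 to 1.12), and Vpreb1, a surrogate light chain gene, at 1.02 and 1.06. Bank1 was at 1.03 (0.934 to 1.14) among young and 0.858 (0.756 to 0.970) among aged HSCs, the latter interval wholly below 1. Blk was at 0.950 (0.834 to 1.08) and 1.103 (0.942 to 1.29). Fragments summed over the whole list gave 1.02 (0.981 to 1.06) and 1.01 (0.966 to 1.06). The 12 T lymphoid genes had medians of -0.0046 and -0.0023, and summed to 1.02 in both libraries, with intervals from 0.994 to 1.05 and from 0.990 to 1.05. The adhesion gene Cd2 was the T lymphoid gene at least 1.1-fold higher in both, at 1.18 (1.03 to 1.34) and 1.102 (0.928 to 1.30).

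Lymphoid-primed progenitor genes lay on opposite sides of 1 in the libraries, which depended on the setting. Their sum was 1.02 (1.001 to 1.04) among young and 0.985 (0.964 to 1.01) among aged HSCs, with 10 and 3 of 16 genes above 0. For comparison, 52.6% of all genes tested were above 0 among young HSCs and 50.9% among aged HSCs. The median log2 ratio of the list was 0.041 in young and -0.048 in aged cells, and the young median fell below 0, to the aged side, after thinning (-0.046), with windows of 2 kb (-0.011) and at start sites (-0.047). Cd27, a marker of early lymphoid progenitors, was at 1.097 (0.985 to 1.22) and 0.969 (0.850 to 1.101), and the E protein gene Tcf3 at 1.04 and 0.919, whereas Lef1, a partner of Wnt signalling, was at 1.04 (0.952 to 1.14) and 1.12 (1.01 to 1.24). NK and innate lymphoid genes summed to 0.974 (0.938 to 1.01) and 0.986 (0.946 to 1.03). No gene of any of the 13 lists was at least 1.2-fold higher or lower in both libraries, beside 0.00705% and 0% of all genes. When cells were ranked by a lymphoid list in place of the score, 17.2% (14.5 to 20.1%) of young and 16.7% (13.5 to 20.2%) of aged high-score cells were in the top 15% by the B lymphoid list, and 16.1% (13.5 to 19.0%) and 18.4% (15.2 to 22.1%) by the T lymphoid list. Lists of other cells gave like shares in the aged library, with 20% (16.6 to 23.7%) for the HSC list, 18.2% (14.98 to 21.9%) for the myeloid list and 17.6% (14.4 to 21.2%) for the replication and mitosis list. The share was above 15% for 11 of 13 lists in the young library and 8 of 13 in the aged library, so 15% was not shown to be the level of unrelated lists. Given these small differences, no cell type name was given to the high-score cells.

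Markers of other lineages also lay near 1. Sums over the HSC list, with Mecom, Hlf and Meis1, were 1.01 (0.992 to 1.02) and 1.02 (0.9999 to 1.03). Sums over the megakaryocyte list were 1.01 in both libraries, those over the erythroid list 1.01 and 1.02, those over the myeloid list 1.02 and 1.01, and those over the dendritic and antigen presentation list 1.02 and 0.986. Sums over the replication and mitosis list were 1.01 and 1.02, and those over the neuronal list 0.991 and 0.992. Hbb-bt, which shares sequence with its neighbouring globin copies and is therefore uncertain, was the erythroid gene at least 1.1-fold higher in both libraries, and the synaptic gene Syt1 was the neuronal gene at least 1.1-fold lower in both. Of all genes, 0.473% and 0.592% passed these limits.

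Genes known to be higher in aged HSCs were slightly less accessible in high-score cells of both ages over whole gene windows. The direction turned in some settings given below, among them start sites, where other cells were chosen and fewer genes tested. The summed level of these genes was 10.2 fragments per 10000 in high-score against 10.7 in other young cells, a ratio of 0.957 (0.933 to 0.981). Among aged HSCs it was 13.9 against 14.5, a ratio of 0.962 (0.938 to 0.986). Of 17 genes tested, 13 were below 0 in both libraries and 1, Alcam, was above in both, whereas 24.0% of all genes were below 0 in both. The median log2 ratio was -0.039 in young and -0.076 in aged cells. Cavin2 and Ehd3, both known for membrane traffic, were the 2 at least 1.1-fold lower in both (0.592% of all genes), with Ehd3 at 0.832 (0.701 to 0.984) and 0.891 (0.765 to 1.03).

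Other members of this list were nearer to 1. Aldh1a1, a retinaldehyde dehydrogenase, had 28.6 FPM against 33.4 among young HSCs, a ratio of 0.855 (0.733 to 0.992), and 62.5 against 65.9 among aged HSCs, a ratio of 0.949 (0.842 to 1.07). Selp, which encodes P-selectin, was at 0.986 and 0.928, Clu, which encodes clusterin, at 0.971 and 0.964, and Vwf, which encodes von Willebrand factor, at 0.973 and 1.02. Gpr183, a receptor for oxysterols, was the exception, at 0.980 (0.850 to 1.13) among young and 1.19 (1.05 to 1.35) among aged HSCs. The ratio of the whole list stayed below 1 in 9 of 9 settings in the young library and in 8 of 9 in the aged library. The exception was the aged library after thinning, at 1.01 (0.972 to 1.05). The young interval held 1 in 1 of the 9 settings, after thinning, and the aged interval in 6, namely after thinning, scaled to in-peak fragments, for the top 10%, for the top 25%, within bands of depth and for 4 marker genes. A setting with windows of 1 kb on either side of the start site is not among these. It chose the cells again on start sites and tested 4408 genes in place of 14179. Over the genes of the list still tested, the median log2 ratio was above 0 in both libraries, at 0.029 in young and 0.092 in aged cells. That setting therefore does not measure the same cells and genes at their start sites. When cells were ranked by this list instead, 12.1% (9.87 to 14.7%) of young and 13.1% (10.3 to 16.4%) of aged high-score cells were in its top 15%. Over all 13 lists ranked in this way the share ran from 12.1% to 17.2% in the young and from 13.1% to 20% in the aged library, and this list gave the lowest value in both.

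Regions whose accessibility differs with age in the study's bulk ATAC-seq of HSCs (DARs, of which only the coordinates and the direction were used) gave small differences on the same side in both libraries. Aged HSC open DARs, 428 regions, held 13.9 of 10000 fragments in high-score and 14.2 in other young cells, a ratio of 0.981 (0.961 to 1.003), and 29.1 against 29.9 among aged HSCs, a ratio of 0.973 (0.957 to 0.990). Closed DARs, 117 regions outside the windows of the rule genes, held 13.6 against 13.2 among young HSCs, a ratio of 1.02 (1.002 to 1.05), and 10.5 against 10.2 among aged HSCs, a ratio of 1.03 (1.001 to 1.06). The ratio of closed DARs stayed above 1 in 13 of 13 settings in each library, though the interval held 1 in 6 of them in the young library and in 5 in the aged library, among them the top 10%, start sites, thinning and the setting without marked doublets. That of open DARs was below 1 in 11 of 12 in each, and thinning to 4000 fragments took the young ratio to 1.02 and scoring by the start sites alone took the aged ratio to 1.01.

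Single peaks outside the rule windows gave a similar picture. Of 16910 peaks with at least 400 fragments per library, 38 were at least 1.2-fold higher in high-score cells of both libraries (0.225%) and 69 were lower (0.408%). The highest by the ratio nearer to 1 lay in an intron of Gm32585 (chr5:125268161-125268834), at 1.37 (1.06 to 1.74) among young and 1.31 (1.02 to 1.67) among aged HSCs, and in an intron of Fnbp1l (chr3:122606190-122606821), at 1.28 (1.03 to 1.59) and 1.39 (1.06 to 1.80). The others of the 5 highest were intergenic, nearest to Gm33926 and to Ahctf1, or intronic in Gm13986. The lowest lay in an intron of Hsp90aa1 (chr12:110698422-110698859), a heat shock chaperone gene, at 0.742 (0.566 to 0.959) and 0.721 (0.522 to 0.976). It was followed by peaks at Ece1, 4732471J01Rik, Gm10282 and Fam57a.

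Grouping distal peaks by consensus sequence pooled far more fragments, and the PU.1 group was highest by the mean of the libraries. The 9687 of 128282 distal peaks with GAGGAAGT in their central 200 bases (7.55%) were compared with all distal peaks. Relative to these, their share of fragments was 1.017 (1.012 to 1.022) times higher in young high-score cells and 1.033 (1.026 to 1.039) times higher in aged ones. The ratio stayed above 1 in 7 of 7 settings in each library, from 1.015 to 1.025 among young and from 1.012 to 1.034 among aged HSCs, the lowest aged value being that of thinned cells. Against distal peaks of like GC content and like fragment number it was 1.018 and 1.034.

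At the 3 peaks shown, the intervals held 1. The peaks in Fam107b, Ankrd33b and Ski, whose sequences are given above, had the most fragments among those considered for display. Their ratios were 0.913 (0.801 to 1.04), 1.02 (0.898 to 1.16) and 1.03 (0.898 to 1.17) in young cells. In aged cells they were 1.11 (0.957 to 1.28), 0.967 (0.823 to 1.13) and 1.04 (0.889 to 1.202). Spi1 itself, the gene of PU.1, was at 1.01 (0.940 to 1.09) and 0.999 (0.914 to 1.09) over its gene window.

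Of the 20 consensus groups, 8 were above all distal peaks in both libraries, 6 were below in both, and the intervals of PU.1 and MEIS were above 1 in both. The MEIS group (TGACAGNT, 3.75% of distal peaks), a motif of partners of HOX proteins, was at 1.008 (1.0004 to 1.015) and 1.009 (1.0001 to 1.017). The RUNX group (TGTGGTT, 10.5%) was at 1.003 and 1.006 and the IRF group (GAAANNGAA, 9.30%) at 1.003 and 1.004. Motifs of lymphoid regulators were nearer to 1 than PU.1. The E2A group (CACCTG or CAGCTG, 24.5%) was at 1.005 (1.002 to 1.007) and 1.0003 (0.997 to 1.003), the EBF group (CCCNNGGGA, 2.83%) at 1.001 and 0.998, the TCF/LEF group (CTTTGAT, 2.65%) at 1.001 and 1.006, and the IKZF group (TTGGGAA, 3.47%) at 0.992 and 0.998. The KLF/SP group (GGGGCGG, 2.83%) was lowest by the mean of the libraries and in the aged one, at 0.996 (0.990 to 1.002) and 0.979 (0.972 to 0.985). A match to a consensus is a description of the sequence and not a binding site. The GAGGAAGT consensus is also close to those of other ETS factors, and the narrower ETS group (CCGGAAGT, 581 peaks) was at 1.019 (1.002 to 1.037) and 0.996 (0.976 to 1.016).

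**Figure D4:**
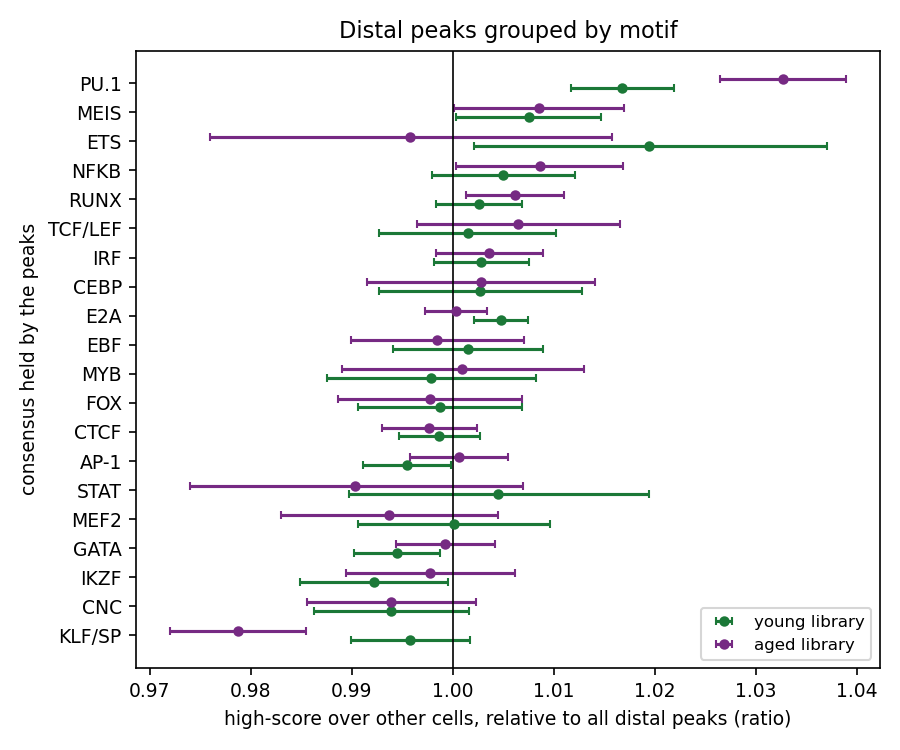
Distal peaks grouped by the consensus in their central 200 bases (y axis, ordered by the mean of the libraries) and the ratio of their fragments in high-score over other cells, relative to all distal peaks (x axis, linear). Points are single libraries with 95% counting intervals, and PU.1 lies highest by that mean, at 1.017 among young and 1.033 among aged HSCs.

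The place of high-score cells among all cells was examined with peaks outside the rule windows, so that the score had no part in it. Among the 20 nearest neighbours of a high-score cell, 18.8% were high-score cells in the young library, against 18.0% among the neighbours of other cells, and 20.8% against 18.7% in the aged library. Neighbours of both kinds therefore held more high-score cells than the 15% of each library, and the difference between them was small. The share among neighbours of high-score cells over that of other cells was 1.04 (0.892 to 1.21) in young and 1.11 (0.927 to 1.31) in aged cells, and stayed above 1 in 4 of 4 settings, with intervals that held 1 in each. These intervals are the exact binomial ones of the share around high-score cells with each high-score cell counted once, divided by the share around the other cells, whose own error they leave out.

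Clustering on the same peaks gave 3 clusters in each library. In the young library high-score cells made up 15.1% (13.6 to 16.7%), 14.4% (12.97 to 16.0%) and 16.6% (13.7 to 19.8%) of clusters 1, 2 and 3, shares whose intervals overlapped. In the aged library they made up 13.5% (11.8 to 15.2%), 19.8% (17.2 to 22.5%) and 12.8% (10.7 to 15.2%), so that the interval of cluster 2 lay above those of the other two. Aged cluster 2 held 911 cells, with a median of 11779 unique fragments, 80.0% of fragments in peaks and 9.33% marked doublets, against 10431 to 11227 fragments, 80.8 to 82.4% and 3.93 to 8.11% in the others. The part of these differences in its share of high-score cells was not tested.

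Flt3 and Dntt differed between clusters. Flt3, whose window had no part in the clustering, was 1.22 (1.15 to 1.28) times higher in young cluster 1 than in the rest of the library, and was at 0.776 (0.733 to 0.822) in cluster 2 and 1.09 (1.01 to 1.17) in cluster 3. In the aged library it was highest in cluster 2, at 1.26 (1.17 to 1.35), and was at 0.921 (0.858 to 0.988) and 0.853 (0.783 to 0.929) in clusters 1 and 3. The ratio of the highest cluster stayed between 1.22 and 1.28 in 5 settings in the young library and between 1.25 and 1.29 in the aged library. Dntt followed the same order at the ends, at 1.24 (1.14 to 1.35) in young cluster 1 against 0.795 (0.726 to 0.869) in cluster 2, and at 1.16 (1.03 to 1.29) in aged cluster 2.

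The other rule genes did not all follow in young cluster 1. In young cluster 1, Il7r was at 1.42 (1.06 to 1.90), whereas Satb1 was at 0.990 (0.928 to 1.06), Notch1 at 0.971 (0.927 to 1.02), Ebf1 at 1.02 (0.968 to 1.08) and Cd79a at 1.004 (0.945 to 1.07). In aged cluster 2 the other rule genes were all above 1, with Ikzf1 at 1.17 (1.11 to 1.25) and Rag2 at 1.196 (1.07 to 1.34). The intervals of the rest held 1. Notch1 was at 1.03 (0.973 to 1.098), Rag1 at 1.102, Cd79a at 1.08, Il7r and Satb1 at 1.06, and Ebf1 at 1.02. All 10 genes together were at 1.04 (1.02 to 1.06) in young cluster 1 and 1.11 (1.08 to 1.14) in aged cluster 2. Young cluster 1 thus stood higher for Flt3 and Dntt, and yet its share of high-score cells, 15.1%, was that of the whole library.

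Both clusters with the highest Flt3 also had the highest PU.1 distal peaks and the lowest HSC aging list, values that the clustering used and that are therefore a description. PU.1 peaks relative to all distal peaks were at 1.11 in young cluster 1 and 1.098 in aged cluster 2, and the HSC aging list at 0.949 and 0.888. The lymphoid lists gave no common direction there. The lymphoid-primed progenitor list was lower in both, at 0.949 and 0.980, and so was the NK and innate lymphoid list, at 0.939 and 0.9905. The B lymphoid list was at 1.05 and 0.999 and the T lymphoid list at 1.01 in both. The HSC list was at 0.897 and 0.951. Leading genes of young cluster 1 were Ctla2a, Tpbpa and Rgs1, and those of aged cluster 2 were Nsg2, Gm49391 and Mki67, and no cell type name was given to them. Within each of the 6 clusters, PU.1 peaks were still higher in high-score than in other cells, from 1.014 to 1.026, with every interval above 1. Open DARs were below 1 in 4 of the 6 clusters and at 1.03 (0.969 to 1.08) in young cluster 3 and 1.02 (0.996 to 1.05) in aged cluster 1. Every interval of open DARs held 1. Closed DARs were above 1 in all 6, from 1.0007 to 1.11, with an interval above 1 in young cluster 3 alone. Flt3 left out of the score was above 1 in 5 of the 6, and at 0.983 (0.833 to 1.15) in aged cluster 1, and every interval held 1. The HSC aging list was below 1 in 5 of the 6 clusters and at 1.01 (0.970 to 1.05) in aged cluster 1. Its interval lay below 1 in young cluster 1 and aged cluster 2 and held 1 in the rest.

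**Figure D5:**
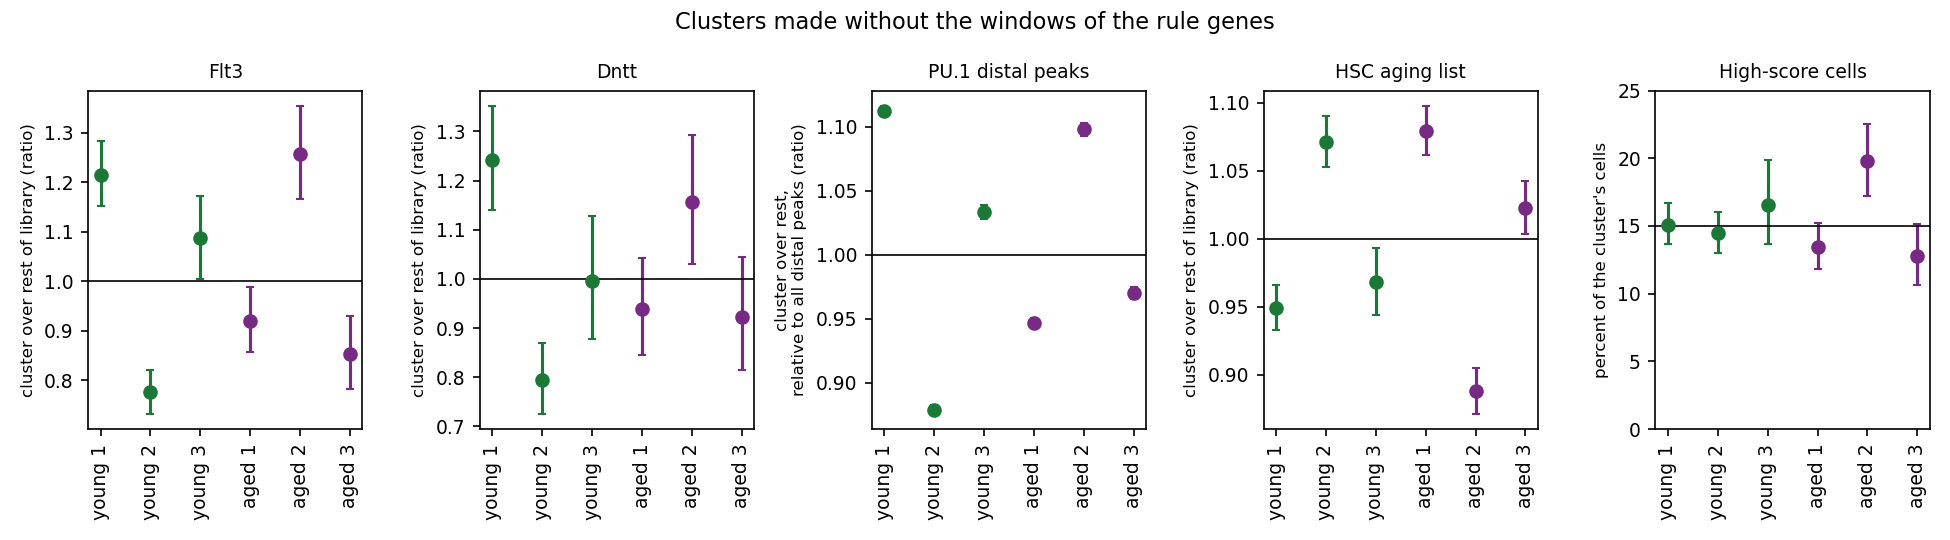
Clusters 1 to 3 of the young (green) and aged library (purple), made on peaks outside the rule windows. Panels show Flt3, Dntt, PU.1 distal peaks and the HSC aging list in a cluster over the rest of its library (ratios), and the percent of a cluster's cells that are high-score, with 95% counting intervals. Young cluster 1 and aged cluster 2 are highest for Flt3 at 1.22 and 1.26, and high-score cells make up the largest share of the cells of aged cluster 2, at 19.8%.

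Between ages, the summed 10 genes of the score were less accessible in the aged library over all cells, while Ebf1 was higher. Each library gave its own top 15%, so the share of high-score cells is fixed by the rule and says nothing of age. Over all cells the 10 genes had 7.48 fragments per 10000 among young and 6.95 among aged HSCs, an aged over young ratio of 0.929 (0.915 to 0.944). It was 0.926 (0.896 to 0.958) among high-score cells and 0.935 (0.919 to 0.952) among the others, values given as a description, since the same fragments chose the cells under a lower threshold in the aged library. All genes tested shifted too, and their median log2 ratio was -0.071 between high-score cells of the 2 ages and -0.076 between the others. With the young threshold applied to both libraries, 336 of 3405 aged cells (9.87%, 8.89 to 10.9%) passed, and after thinning to 4000 fragments 18.2% of young and 15.1% of aged cells had at least 5 fragments, which is the young threshold at that depth.

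The genes differed in their change with age. Flt3 had 105 FPM in all young and 82.2 in all aged cells, a ratio of 0.780 (0.746 to 0.815), and was the lowest of the 10. Satb1 was at 0.862 (0.819 to 0.908) and Dntt at 0.866 (0.810 to 0.927), whereas Cd79a, Ikzf1 and Notch1 were at 0.924, 0.934 and 0.938, near the shift of all genes, and Rag1 and Rag2 at 0.956 and 0.957. Ebf1 was higher in aged cells, with 107 FPM in young and 119 among aged HSCs, a ratio of 1.11 (1.06 to 1.15). In high-score cells, Flt3, Dntt and Satb1 were at least 1.2-fold lower in the aged library, at 0.778, 0.801 and 0.820, where 8.44% of all genes were, and Il7r at 1.77 was at least 1.2-fold higher, where 5.53% of all genes were. Over all cells Il7r was at 1.04 (0.836 to 1.28), and in the other cells at 0.871 (0.676 to 1.12). The values in high-score cells rest on cells that the same genes chose, and the lower aged threshold acts on them.

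The HSC aging list was higher in aged high-score cells than in young ones, at 1.36 (1.32 to 1.41), and by the same ratio among the other cells, at 1.36 (1.34 to 1.38). In high-score cells the median log2 ratio over its genes was 0.442, beside -0.071 over all genes tested. Aldh1a1 went from 28.6 to 62.5 FPM and Cavin2 from 32.4 to 60.9. High-score cells thus held the difference between ages at these genes as the other cells did. Lists of lymphoid genes outside the rule were at 0.908 (0.860 to 0.958) for B lymphoid, 0.976 (0.940 to 1.01) for T lymphoid, 0.949 (0.924 to 0.974) for lymphoid-primed progenitor and 1.16 (1.101 to 1.22) for NK and innate lymphoid genes in aged over young high-score cells, and at 0.913, 0.9754, 0.983 and 1.15 in the others. The sum of the NK and innate lymphoid list was above 1, but its genes lay on both sides of 1 in high-score cells. Zbtb16, a zinc finger factor of innate-like lymphocytes, at 1.33 (1.23 to 1.45), and the perforin gene Prf1, at 1.71 (1.38 to 2.12), were highest, and Tbx21, which encodes T-bet, at 0.875 (0.703 to 1.09), was lowest. With 1 library per age, age and library cannot be told apart in any of these ratios.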

How the data were processed

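Fragments and barcode tables of single cell ATAC-seq were used for 2 libraries, young and aged HSCs. The authors used Cell Ranger ATAC with an mm10 reference, which collapses duplicates, corrects the offset of the transposase cuts and calls cells, on each library by itself, and deposited counts of unique fragments and read pairs with no normalization. The study's methods and the layout of the barcode table point to different releases of that program, so no version is given. Pipeline-called cells with 3000 to 20000 in-peak fragments were kept, and doublets, marked where 3 or more fragments of a cell overlapped at many loci (q under 0.01), were kept too.

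A fragment counted in a window when one or both of its ends fell in the gene body or the 10 kb beside it, and values were scaled to unique fragments. Fragments in both the Rag1 and Rag2 windows were counted once in the score. Peaks were called anew on kept cells (Poisson p under 1e-05, windows of 151 bp against 10000 bp around), and distal peaks lay more than 1 kb from a start site. Cells were clustered per library on components 2 to 30 of a latent semantic index, without peaks in rule windows, with 20 neighbours and Leiden clustering at resolution 0.6 (leidenalg 0.10.2, scikit-learn 1.9.0, scipy 1.17.1, Python 3.11.15). Gene windows with under 1000 fragments in either library were left out. Named by a fixed rule were the rule genes, the 10 highest and lowest by the ratio nearer to 1, and the 5 highest and lowest peaks. Members of the lists were named too, those at least 1.1-fold apart in both libraries and others as examples without a fixed rule. The ratio calculation was tested on simulated data. Sequences are from the GRCm38 assembly. The cells, lists and comparisons were chosen with earlier results of these data known. No test was possible with 1 library per age, and PCR copies were already collapsed to unique fragments.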

Additional observations from a re-analysis of the deposited data

Results flagged for a closer look

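Each of the following values lay on opposite sides of 1 in the 2 libraries, and none of the differences between libraries was tested. Il7r left out of the score was at 1.68 (1.11 to 2.48) in aged and 0.888 (0.559 to 1.35) in young cells, on 33 and 25 fragments. Lymphoid-primed progenitor genes were at 0.985 (0.964 to 1.01) in aged and 1.02 (1.001 to 1.04) in young cells. Immediate early and AP-1 genes were at 0.971 (0.953 to 0.989) in aged and 1.002 (0.986 to 1.02) in young cells, with Klf2, a regulator of lymphocyte and endothelial quiescence, at 0.845 (0.762 to 0.935) in aged and 1.02 (0.932 to 1.11) in young cells, and Jund at 0.901 (0.838 to 0.969) and 1.0001 (0.939 to 1.06). The side of both lists turned with the setting. The young median log2 ratio of the lymphoid-primed list was below 0 after thinning (-0.046), with windows of 2 kb (-0.011) and at start sites (-0.047), and that of the immediate early list was -0.038 when scaled to in-peak fragments, beside -0.054 in aged cells, whereas the aged median of the latter was 0.00068 after thinning. Distal peaks with the ETS consensus CCGGAAGT were at 0.996 (0.976 to 1.02) in aged and 1.02 (1.002 to 1.04) in young cells. Distal peaks with the AP-1 consensus TGANTCA were at 1.001 (0.996 to 1.005) in aged and 0.995 (0.991 to 0.9998) in young cells.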

How the results depend on the processing

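No paired analysis was possible because each age had 1 library. Of the values that answer a comparison, 93 alternatives stayed within the main interval, or within 1.5-fold for counts, 35 moved beyond it and 1 reversed. In each case the cause was not tested. A value was called reversed only where the main interval excluded 1, so these numbers do not count every change of side. Open DARs in young cells crossed 1 after thinning and are among those that moved. The number of genes at least 1.2-fold higher in both libraries, 1, was 5 with a lower minimum of fragments, 276 with no minimum, 67 at 1.1-fold, 0 at 1.5-fold, 4 scaled to in-peak fragments, 2 for the top 10%, 3 without marked doublets, and 0 for the top 25%, for windows of 2 kb, within bands of depth and with Rag1 and Rag2 fragments counted in both. The number lower, 0, was 14 with a lower minimum of fragments, 545 with no minimum, 84 at 1.1-fold, 3 for the top 10%, 2 within bands of depth, and 1 for windows of 2 kb and for that count of Rag1 and Rag2. The genes tested numbered 14179 in the main setting, 16385 with the lower minimum, 21149 with no minimum and 11287 for windows of 2 kb. Rule genes left out and above 1 in both libraries, 2, were 4 scaled to in-peak fragments, 5 after thinning, and 1 for the top 25% and without doublets. Lists with medians below 0 in both, 3 of 13, were 5 when centred on all genes, for the top 10% and for windows of 2 kb, and 7 when the score used 4 marker genes. For start sites they were 1 of the 5 lists that kept enough genes. Open DARs in young cells were at 1.02 after thinning and 0.956 for 4 marker genes, and in aged cells at 0.953 scaled to in-peak fragments, 0.995 after thinning and, reversed, 1.009 for start sites. PU.1 peaks were at 1.025 in young cells scaled to in-peak fragments and at 1.012 in aged cells after thinning, and 4 consensus groups in place of 8 were above in both after thinning. The 10 genes in aged over young high-score cells were at 0.960 after thinning. The HSC aging list reversed in aged cells after thinning, at 1.01. Alternatives beyond the settings first listed were chosen after seeing the data, among them that count, the 4 marker genes, the comparison of PU.1 peaks at like GC content and the split of fragments into parts. The median of 7 fragments per cell limits what the score can separate.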
